A study of Rattus norvegicus with 36 samples.

Results

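The comparison of Lewis with Fisher lung at postnatal day 14 (PN14) rested on 8 of the 36 arrays of the series, 4 titled Lewis at PN14 and 4 titled Fisher at PN14, chosen by strain and age in the sample titles. The whole series used one-colour Illumina beadchips to profile RNA of whole lung from these strains and Brown Norway, each at 3 ages (PN1, PN7 and PN14), under a title that names inherited influences on asthma susceptibility in the developing lung. The labels give no treatment, genotype beyond the strain name, or sex for these groups. Nothing in the labels says whether a replicate is a separate animal. The p-values therefore cover the spread among arrays within strain and age groups, pooled over all 36 arrays, part of which may be technical. Lewis and Fisher are inbred laboratory strains, and Lewis rats are known for a weak stress-hormone (glucocorticoid) response and for their proneness to experimental autoimmune inflammation.

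At this age the rat lung is forming alveoli. Thin walls rich in elastic fibres, laid down on fibrillin microfibrils by fibroblasts, subdivide the air sacs, while flat type 1 cells and surfactant-producing type 2 cells line them and club cells line the airways. The lung also carries enzymes that oxidise inhaled and circulating chemicals, among them the flavin-containing monooxygenases. Whole-lung RNA mixes all of these cells, and in such samples fewer cells of a type and less RNA per cell cannot be told apart.

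The 8 arrays detected between 9568 and 10583 probes, and their median raw intensity lay between 228 and 295. All 7 measured lung-defining genes were detected on every one of them. Lewis replicate 2 stood apart. The 21 measured skeletal muscle genes averaged 11.13 on it (log2 intensity), against 8.38 to 8.73 on the other Lewis arrays and 8.40 to 8.89 on the Fisher arrays, and all 21 were detected. The 15 heart muscle genes averaged 10.57 on Lewis replicate 2 and 10.28 on Lewis replicate 4, and 8.92 to 9.53 on the remaining arrays. The 9 adipocyte genes averaged 10.80 and 10.04 on these arrays, and 9.22 to 9.60 on the rest. Ucp1, the uncoupling protein of brown fat, read 14.45 on Lewis replicate 2 and 12.01 on replicate 4, and between 8.07 and 10.10 on the other 6 arrays. Counts are therefore given with and without Lewis replicate 2, and, as a setting chosen after seeing the data, without replicates 2 and 4. Lewis replicate 1 lay on another slide than the other 7 arrays.

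**Figure D1:**
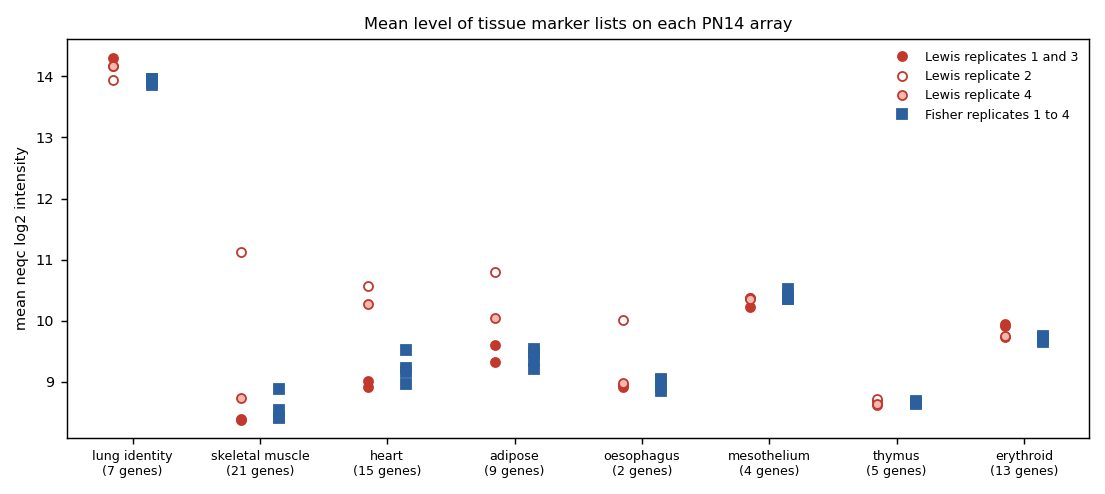
Mean log2 intensity (vertical axis) of the measured genes of each tissue marker list (horizontal axis, number of genes in brackets) on each PN14 array. Lewis replicate 2 lies above all other arrays for skeletal muscle, at 11.13, and for the oesophagus list, at 10.02, and Lewis replicates 2 and 4 lie above the rest for heart and adipose genes.

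Of 11339 tested probes, 1429 differed between Lewis and Fisher at PN14 at an adjusted p under 0.05 in limma (12.6% of those tested). In Lewis, 638 were higher (5.63%) and 791 lower (6.98%). Most differences were small, and 109 probes (0.961%) reached 2-fold, 61 of them higher and 48 lower. At least 4-fold differences were found for 14 higher and 7 lower probes. Without Lewis replicate 2, 1224 probes passed (10.8%), 615 higher and 609 lower. Of the 1429, 1154 passed again with the same sign, and 197 of the 275 lost were lower in Lewis. Leaving out Lewis replicates 2 and 4 gave 866 probes (7.64%), and median scaling in place of quantile normalisation gave 688 (6.07%), with 252 higher and 436 lower. A fit of the 8 arrays alone, which takes the spread from these groups and not from all 36 arrays, gave 1980 (17.5%), and the authors' deposited log2 values gave 1406 (12.4%). The 4 Lewis arrays lay wholly above or below the 4 Fisher arrays for 2666 probes (23.5%), among them 1334 of the called ones. Among the 8063 genes with a symbol, 453 were higher and 570 lower (12.7% called), with a median log2 difference of -0.01.

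The gene with the greatest excess in Lewis was Washc3, a subunit of the WASH complex that builds actin on endosomes. Its log2 intensity was 11.63, 11.79, 11.65 and 11.71 on the Lewis arrays and 8.20, 8.29, 8.43 and 8.36 on the Fisher arrays, of which 3 detected it. The groups were far apart, with a log2 difference of 3.37 ± 0.09 (SE, 10.4-fold, adjusted p = 8.67e-23). Lcn2, which encodes the siderophore-binding neutrophil and epithelial protein lipocalin 2, read 11.92, 11.86, 11.95 and 11.55 in Lewis and 8.34, 8.45, 8.56 and 8.46 in Fisher. Its difference was 3.37 ± 0.40 (10.3-fold, adjusted p = 3.02e-07), and no array overlapped. Scgb3a2, a secretoglobin of airway club cells, read 14.55, 14.59, 14.72 and 14.82 in Lewis and 12.58, 12.60, 12.78 and 12.60 in Fisher, again without overlap (difference 2.03 ± 0.17, 4.08-fold, adjusted p = 1.27e-10).

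The other 12 of the 15 highest genes lay between 1.76 and 2.96 on the log2 scale. They included Hmgn1 (2.96), a nucleosome-binding protein, Lgals5 (2.76), a galectin of rat red cells, and Slco1a5 (2.74), an organic anion transporter. Cd2bp2 (2.37), a splicing factor, Socs5 (1.96), a suppressor of cytokine signalling, and Rab3d (1.76), a GTPase of regulated secretion, were also among them. So were Qrfpr (2.07), a neuropeptide receptor that 2 of the 4 Fisher arrays detected, Olfm1 (1.77), a secreted glycoprotein, and Mrpl17 (1.78), a protein of the mitochondrial ribosome. Where a strain carries a variant in the stretch a probe binds, the probe can read lower. No strain sequences were compared, so the part of this in any single-gene difference was not tested.

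The lowest gene in Lewis was Rpl30, a protein of the large cytosolic ribosomal subunit. It read 8.44, 10.82, 10.01 and 10.09 in Lewis and 13.70, 13.73, 13.64 and 13.79 in Fisher. The Lewis arrays were scattered, with the lowest value on the array of the other slide, yet all lay below Fisher (log2 difference -3.87 ± 0.28, 14.6-fold, adjusted p = 5.76e-12). Mrpl18, a mitochondrial ribosomal protein, read 8.10, 8.83, 8.53 and 8.56 in Lewis, where 3 arrays detected it, and 12.43, 12.40, 12.20 and 12.34 in Fisher. The difference was -3.84 ± 0.09 (14.3-fold, adjusted p = 6.41e-24). Of 57 measured cytosolic ribosomal genes, Rpl30 included, 2 were higher and 5 lower, with a median log2 difference of -0.0047. Without Lewis replicate 2, 3 were lower. Of 58 mitochondrial ribosomal genes, Mrpl17 and Mrpl18 included, 4 were higher and 3 lower, with a median of -0.0005. The shares called, 12.3% and 12.1%, lay near the 12.7% of all genes.

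Bnip3, a mitochondrial protein of hypoxia-induced mitophagy, read 8.95, 9.59, 9.06 and 9.33 in Lewis and 11.50, 11.04, 11.45 and 11.56 in Fisher. The groups did not overlap, and the difference was -2.15 ± 0.17 (adjusted p = 5.87e-11). It was the only one of 18 measured hypoxia genes to pass (5.56% called against 12.7% of all genes). Timp1, an inhibitor of matrix metalloproteinases, read 10.71, 10.72, 10.94 and 10.57 in Lewis and 12.64, 12.65, 12.47 and 12.50 in Fisher, a difference of -1.83 ± 0.13 without overlap (adjusted p = 4.84e-12). Other genes in this group of 15 were Plekhf2 (-2.91), an endosomal phosphoinositide-binding protein that 2 Lewis arrays detected, and Adh1c (-1.84), an alcohol dehydrogenase. Itga1 (-1.78), a collagen-binding integrin, Bcas2 (-1.66), a spliceosome component, and P2ry14 (-1.46), a receptor for UDP-glucose, were also among the lowest.

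Brown Norway lung, the remaining strain, gave a reading of which side stood apart at PN14. Its mean lay nearer to Lewis for 17 and nearer to Fisher for 13 of the 30 genes. Over all 1429 called probes it lay nearer to Lewis for 704 and to Fisher for 725. It was 11.62 for Washc3 and 14.63 for Scgb3a2, at the Lewis level, and 13.77 for Rpl30 and 12.29 for Mrpl18, at the Fisher level. The mean includes an array labelled Brown Norway PN14 replicate 3, which correlated at 0.994 with the PN1 and at 0.975 with the other PN14 arrays of that strain.

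**Figure D2:**
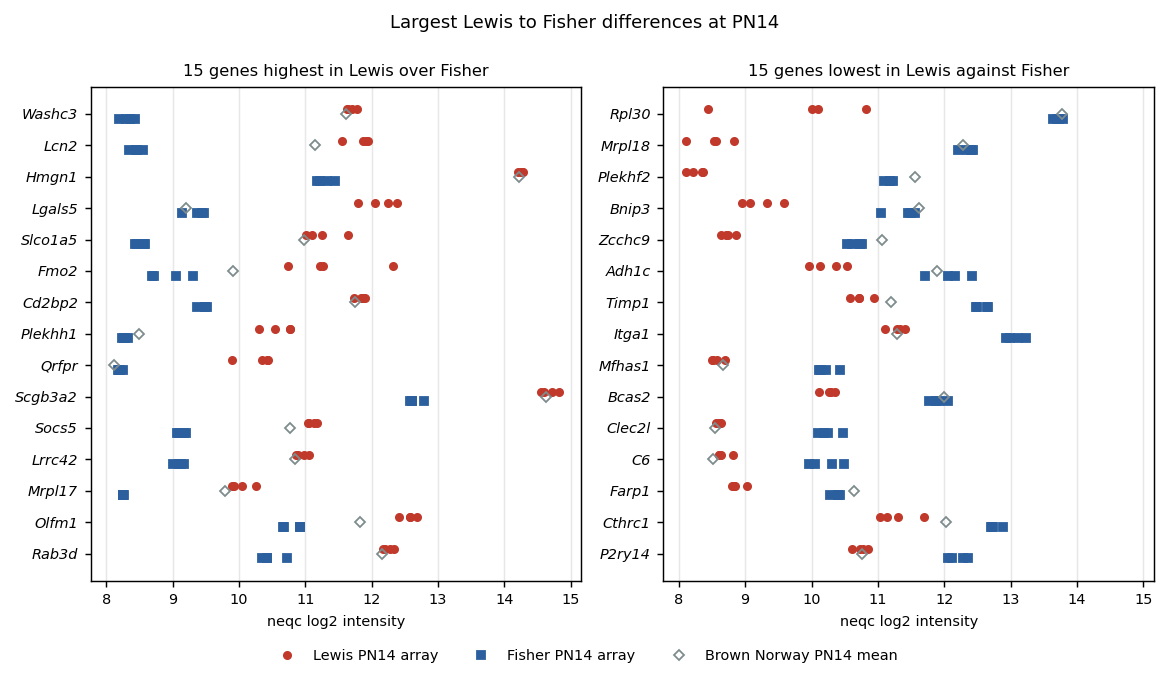
Log2 intensity (horizontal axis) of the 15 genes highest (left) and the 15 lowest (right) in Lewis against Fisher at PN14, with each array as a point and the Brown Norway PN14 mean as an open diamond. No Lewis array overlaps a Fisher array for any of the 30 genes.

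Next, the PN14 difference was set against the same strains' difference at PN1 (7 arrays) and PN7 (8 arrays). At PN1 1162 probes passed (10.2%) and at PN7 1134 (10%). Of the PN14 calls, 482 were shared with PN1 in the same direction (33.7% of the PN14 and 41.5% of the PN1 calls) and 507 with PN7 (35.5% and 44.7%). At all 3 ages 369 probes passed with 1 sign, among them 79 of the 109 probes of at least 2-fold at PN14. In the test of the PN14 difference against the mean of the PN1 and PN7 differences, 333 probes passed (2.94%), of which 215 (1.9%) were more negative in Lewis at PN14 and the rest (1.04%) more positive. Without Lewis replicate 2 the count was 224, of which 121 were more negative. Most arrays of an age lie on 1 slide, so part of what separates the ages cannot be told apart from the slide. With slide as a block 307 probes passed, and with median scaling 48. Without Brown Norway PN1 replicate 5 and PN14 replicate 3, each nearer to the other's age group, 667 passed.

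Washc3 belonged to the differences that were present throughout, with 3.57 at PN1 and 3.22 at PN7. Lcn2 differed by 3.26 and 2.40 at those ages, Scgb3a2 by 2.31 and 1.82, and Rpl30 by -4.99 and -4.89. Other genes passed the test of PN14 against the earlier ages. The levels by age of 12 genes are plotted further on, of which all but Aldh1a1 passed it (adjusted p = 0.10 for Aldh1a1). Among them Timp1 had already differed by -1.52 at PN1 and -0.89 at PN7, and its contrast (adjusted p = 0.027) missed the threshold without Lewis replicate 2 (adjusted p = 0.057).

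**Figure D3:**
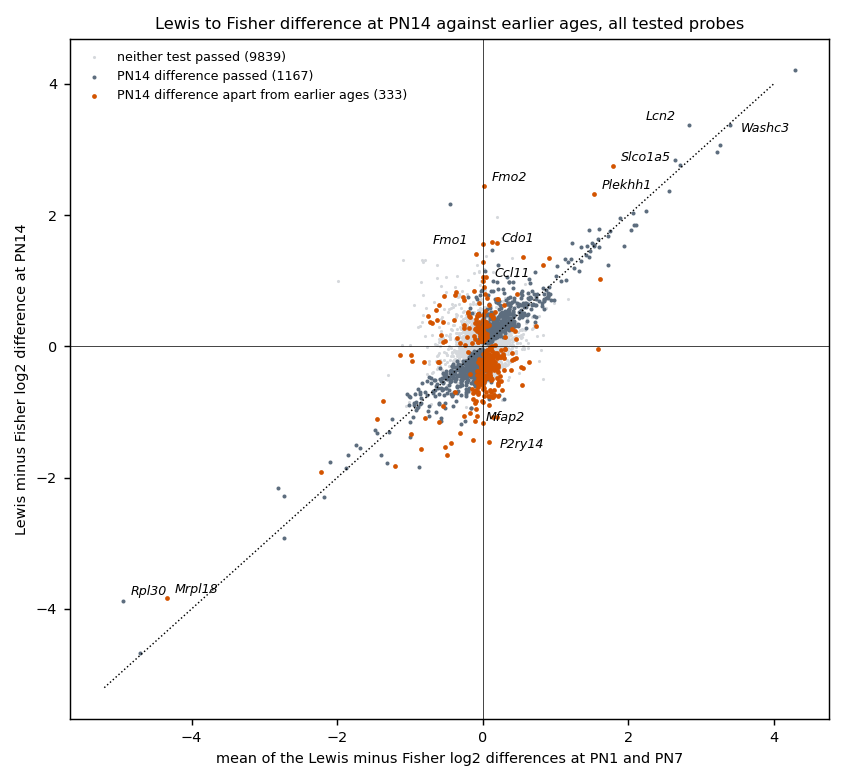
Lewis minus Fisher log2 difference at PN14 (vertical axis) against the mean of the differences at PN1 and PN7 (horizontal axis) for the 11339 tested probes, with equality dotted. The 333 probes in orange passed the test of PN14 against the earlier ages, and Fmo2 lies at 2.44 on the vertical axis with almost no earlier difference.

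Drug-metabolising and antioxidant enzymes held many calls in both directions. Of 52 measured, 11 were higher and 8 lower in Lewis, 36.5% against 12.7% of all genes, with a median of 0.09 (-0.01 with median scaling). All 7 of them that passed the contrast with earlier ages were more positive at PN14. Of all 8063 named genes 254 passed that contrast, 87 more positive and 167 more negative. With median scaling 48 probes of the whole array passed it. Fmo2, a flavin-containing monooxygenase gene, read 10.74, 11.22, 11.26 and 12.31 in Lewis and 8.73, 8.68, 9.05 and 9.31 in Fisher. These values are of RNA, and enzyme activity was not measured. Lewis was higher without overlap, by 2.44 ± 0.34 (5.43-fold, adjusted p = 3.53e-06), with Lewis replicate 4 the highest. At PN1 and PN7 the differences were 0.01 and 0.02. Both strains read low at those ages, 8.38 and 8.34 in Lewis and 8.37 and 8.32 in Fisher, and the test of PN14 against them gave an adjusted p of 0.00082.

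Fmo1, a related enzyme whose gene lies next to Fmo2 in RefSeq's GRCr8 annotation, was also higher in Lewis at PN14. It read 11.09, 10.92, 11.30 and 11.49 in Lewis and 9.72, 9.56, 9.74 and 9.54 in Fisher, a non-overlapping difference of 1.56 ± 0.27 (2.94-fold, adjusted p = 9.26e-05). The earlier differences were 0.14 and -0.13. Cdo1, cysteine dioxygenase, which starts the breakdown of cysteine, read 12.79, 13.21, 12.75 and 13.24 in Lewis and 11.30, 11.17, 11.39 and 11.74 in Fisher. The Lewis excess was 1.60 ± 0.14 (adjusted p = 1.01e-09), after 0.05 at PN1 and 0.21 at PN7.

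Further oxidising and conjugating enzymes were higher in Lewis. They were the retinal-oxidising dehydrogenase Aldh1a1 (0.98), the cytochromes Cyp4b1 (0.88) and Cyp2e1 (0.78), and the epoxide hydrolase Ephx1 (0.52). The glutathione transferases Gstm1 (0.72) and Gstt1 (0.51), the thioredoxin reductase Txnrd1 (0.81) and the peroxiredoxin Prdx1 (0.39) were higher as well. Por (0.45), which passes electrons to cytochromes P450, passed in the full set but had an adjusted p of 0.053 without Lewis replicate 2. Lower in Lewis were the aldo-keto reductases Akr1b8 (-0.96) and Akr1c14 (-0.69) and the glutathione transferases Gstm5 (-0.54), Gsta4 (-0.51) and Gstm4 (-0.16). The peroxidase Gpx8 (-0.29) was lower too, while Mgst3 and Cbr1 lost the call without that array. Gstm genes are close copies of each other, and their probes may share signal.

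Most called genes of the elastic fibre and collagen matrix were lower in Lewis. Of 31 measured, 8 were lower and 1 higher, 29.0% against 12.7% of all genes, with a median of -0.28. The count of lower genes ranged from 3 without Lewis replicates 2 and 4 to 17 in the fit of the 8 arrays alone, where 2 were higher. Without replicate 2, 6 were lower and 0 higher. Fbn2, the fibrillin of developing microfibrils, read 9.17, 8.90, 8.91 and 8.73 in Lewis and 10.03, 10.21, 10.74 and 10.41 in Fisher. Every Lewis array lay below every Fisher array (log2 difference -1.42 ± 0.20, 2.68-fold, adjusted p = 6.50e-06). Mfap2, a microfibril-associated glycoprotein, read 11.14, 11.19, 11.01 and 11.01 in Lewis and 12.15, 12.27, 12.05 and 12.41 in Fisher, a difference of -1.14 ± 0.12 (adjusted p = 2.80e-08).

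Both genes had been close in the 2 strains before. Fbn2 averaged 11.18 in Lewis and 11.38 in Fisher at PN1, and 10.98 and 11.05 at PN7. Mfap2 averaged 12.42 and 12.51 at PN1, and 12.11 and 12.22 at PN7. The PN14 difference was apart from the earlier ones for Fbn2 (adjusted p = 0.0037) and for Mfap2 (adjusted p = 8.25e-05). Fbn1 (-0.64), the other fibrillin, the elastic fibre protein Emilin1 (-0.61), the procollagen processing enhancer Pcolce (-0.49) and fibronectin, Fn1 (-0.38), were lower as well. Eln, elastin itself, read 15.72, 15.08, 15.33 and 15.07 in Lewis and 15.82, 15.72, 15.80 and 15.74 in Fisher. It did not pass (-0.47 ± 0.30, adjusted p = 0.37), although it did within the slide that held 3 of the Lewis and all Fisher arrays (-0.61, adjusted p = 0.0022). It also passed (adjusted p = 0.020) when the pair of Brown Norway arrays that resembled the other age was left out of the shared fit.

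Among proteoglycans, matrix proteases and their inhibitors, 6 of 23 were lower and 1 higher (30.4% called against 12.7% of all genes). The counts were the same without Lewis replicate 2. Beside Timp1 the lower ones were the collagen-degrading cathepsin Ctsk (-0.90), the proteoglycans Vcan (-0.85) and Bgn (-0.59), the membrane metalloproteinase Mmp14 (-0.54) and the plasminogen activator Plat (-0.40). Vcan, versican, read 10.30, 10.44, 10.16 and 10.11 in Lewis and 11.01, 11.23, 11.10 and 11.08 in Fisher, without overlap. Its difference was -0.16 at PN1 and 0.17 at PN7, and PN14 was apart from these (adjusted p = 0.016). The exception was Fmod, fibromodulin, a collagen-binding proteoglycan, which was higher in Lewis by 1.53 ± 0.12 (adjusted p = 2.69e-11).

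Some stromal genes outside these lists were lower too. Cd248, endosialin, a surface protein of perivascular stromal cells, read 11.53, 11.84, 11.28 and 11.40 in Lewis and 12.60, 12.54, 12.51 and 12.64 in Fisher. The groups did not overlap, and the difference was -1.06 ± 0.09 (adjusted p = 6.54e-10), after -0.26 at PN1 and 0.12 at PN7. Cthrc1, a secreted collagen-linked glycoprotein, differed by -1.47, after -0.73 and -0.15. Its contrast with earlier ages had an adjusted p of 0.033, and of 0.063 without Lewis replicate 2. Among 24 fibroblast and pericyte markers, Pdgfra (0.73), the growth factor receptor of alveolar fibroblasts, and the channel gene Kcnj8 (0.20) were higher, and Wnt5a (-0.88), a secreted signal, was lower. The list's median was 0.07, and 12.5% of it was called, near the 12.7% of all genes.

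**Figure D4:**
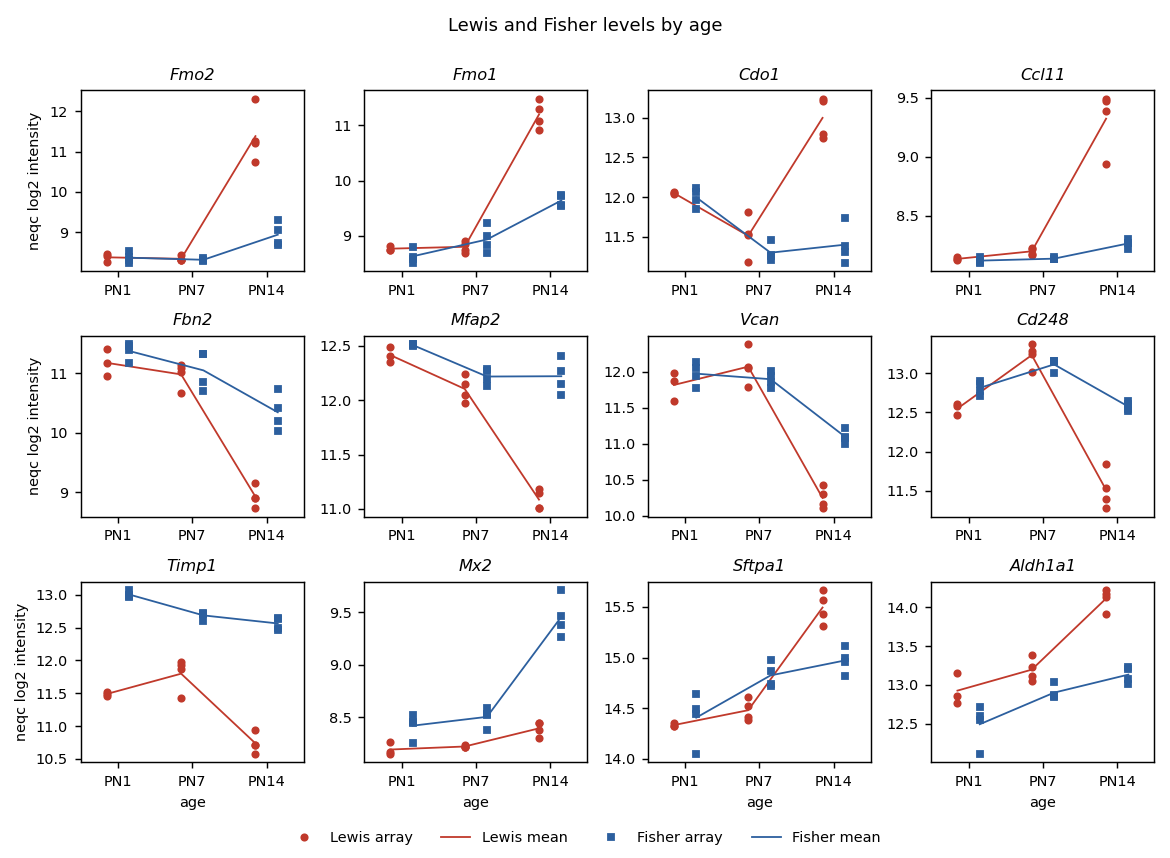
Log2 intensity (vertical axis) of 12 genes on each Lewis and Fisher array at PN1, PN7 and PN14 (horizontal axis), with lines through the group means. At PN14 the Lewis arrays lie above Fisher for Fmo2, Fmo1, Cdo1, Ccl11, Sftpa1 and Aldh1a1 and below for Fbn2, Mfap2, Vcan, Cd248, Timp1 and Mx2.

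Epithelial markers that passed were higher in Lewis, none lower, though the fit of the 8 arrays alone called 1 club cell and 1 type 1 cell gene lower and 5 of each higher. Of 10 club cell genes 3 were higher (30% called against 12.7% of all genes, median 0.49). They were Scgb3a2, Aldh1a1 and Cyp4b1, the last also an enzyme named above. Of 13 ciliated cell genes 1 was higher (7.69%, median 0.04). Of 15 type 1 cell genes 3 were higher (20%, median 0.21). These were the water channel Aqp5 (0.89), the basement membrane collagen Col4a3 (0.62) and the homeodomain protein Hopx (0.34). With median scaling none of these 3 passed, and without Lewis replicates 2 and 4 none did. Of 12 type 2 cell genes 2 were higher (16.7%), the surfactant protein gene Sftpa1 and Pon1 (0.16), an esterase. Sftpa1 read 15.43, 15.31, 15.67 and 15.57 in Lewis and 14.82, 14.96, 14.99 and 15.11 in Fisher, a difference of 0.52 ± 0.13 (adjusted p = 0.0042; 0.20 with median scaling), after differences of -0.07 and -0.34 at the earlier ages. Sftpc, surfactant protein C, differed by 0.15 (adjusted p = 0.43), but passed in the fit of the 8 arrays alone (adjusted p = 0.048) and within 1 slide (0.18, adjusted p = 0.014). Scgb1a1, the main club cell secretoglobin, read between 16.03 and 16.06 on all 8 arrays, near the top of the scale.

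Among glucocorticoid-responsive genes, 5 of 19 were higher and 1 lower (31.6% called against 12.7% of all genes). Besides Lcn2 the higher ones were Tsc22d3 (0.78), the leucine zipper protein known as GILZ, Klf9 (0.69), a transcription factor, and the epithelial sodium channel subunits Scnn1a (0.75) and Scnn1b (0.44). Tsc22d3 read 13.64, 13.61, 13.76 and 14.40 in Lewis and 12.82, 12.91, 12.90 and 13.65 in Fisher. The highest Fisher array, replicate 4, overlapped the Lewis arrays. Klf9 showed the same pair of high arrays, with 14.23 on Lewis replicate 4 and 13.76 on Fisher replicate 4. Per1, a clock gene that glucocorticoids also induce, was high on these arrays too, at 12.55 and 12.58, and did not differ between strains (0.14 ± 0.41, adjusted p = 0.89). With median scaling 1 gene of the list remained higher. Without Lewis replicates 2 and 4, 2 were higher and 1 lower. There Tsc22d3, Klf9 and Scnn1a lost the call (adjusted p = 0.093, 0.077 and 0.072). Tsc22d3 also missed the threshold in the fit of the 8 arrays alone (adjusted p = 0.061). Within 1 slide both it and Klf9 did (0.080 and 0.079). The only gene lower in the full set, Angptl4 (-0.48), lost the call without Lewis replicate 2. Of 11 clock genes (18.2% called), the clock output factors Tef (0.67) and Dbp (0.52) were higher. Dbp was apart from its earlier differences of 0.15 and 0.17 (adjusted p = 6.84e-05). The labels give no hour of tissue collection, and its part was not tested.

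Interferon-induced genes were more often lower than higher in Lewis. Of 29 measured, 7 were lower and 2 higher, and 20 did not pass, with a median of -0.06. All 8063 named genes also leaned lower, with 570 lower and 453 higher (12.7% called). Without Lewis replicate 2, 6 interferon-induced genes were lower and 3 higher. Ifi27 and Ifi44, which interferon induces strongly, were the lowest members with a promoter in RefSeq's table of the GRCr8 build. Their promoters of 300 bases, 250 before to 50 after the start of the gene, are shown with the interferon-response core in capitals, because interferon-activated factors are known to act through that core. It was searched as GAAANNGAAA on either strand, and the pair was chosen after the values were seen. Ifi27 lies at chr6:128355062-128355361 on the plus strand and Ifi44 at chr2:243303791-243304090 on the minus strand.
Ifi27: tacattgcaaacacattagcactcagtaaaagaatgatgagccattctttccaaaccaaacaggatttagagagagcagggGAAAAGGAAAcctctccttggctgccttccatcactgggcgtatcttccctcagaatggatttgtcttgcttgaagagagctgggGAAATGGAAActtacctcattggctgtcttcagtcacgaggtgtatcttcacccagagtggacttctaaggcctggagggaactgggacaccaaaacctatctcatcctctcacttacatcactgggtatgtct
Ifi44: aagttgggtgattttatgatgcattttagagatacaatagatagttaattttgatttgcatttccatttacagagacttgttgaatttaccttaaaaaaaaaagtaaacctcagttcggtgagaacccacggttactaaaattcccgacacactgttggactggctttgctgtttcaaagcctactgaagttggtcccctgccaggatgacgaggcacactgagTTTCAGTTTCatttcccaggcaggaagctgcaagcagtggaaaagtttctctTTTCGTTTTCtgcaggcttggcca
The core occurred in 14 of the 21 measured interferon genes with a promoter in the table and in 3.92% of all 33469 promoters. Among the other called lower genes of these 21, Irf7 held it, and Ifi47 and Cxcl9 did not. Genes that did not pass held it too, such as Isg20 (-0.02). The match describes the letters of the reference strain and says nothing on binding in either strain.

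Ifi27 read 13.18, 13.02, 13.20 and 13.16 in Lewis and 14.29, 14.21, 14.18 and 14.16 in Fisher. Lewis was lower without overlap (difference -1.07 ± 0.13, 2.10-fold, adjusted p = 3.82e-07), as at the earlier ages (-0.70 and -0.76). Mx2, an interferon-induced GTPase, read 8.45, 8.30, 8.38 and 8.45 in Lewis and 9.47, 9.71, 9.27 and 9.38 in Fisher. Its difference of -1.06 ± 0.08 (adjusted p = 7.63e-12) was apart from those at PN1 (-0.23) and PN7 (-0.28), with an adjusted p of 5.27e-06. Ifi44 differed by -0.72 and Ifi47, an immunity-related GTPase, by -0.34. The chemokine Cxcl9 (-0.33) and the protease Usp18 (-0.13) were lower too, and Irf7 (-0.39), the interferon regulatory factor, lost the call without Lewis replicate 2. Ifitm1 (0.73), an antiviral membrane protein, and Oas1k (0.18) went the other way. Irf1 differed by 0.07 and Cxcl10 by -0.06, neither past the threshold.

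Of 15 type 2 immune genes 2 were higher and 2 lower, 26.7% against 12.7% of all genes. Ccl11, eotaxin, which attracts eosinophils, read 8.94, 9.47, 9.39 and 9.49 in Lewis and 8.22, 8.27, 8.30 and 8.27 in Fisher. It was higher in Lewis by 1.06 ± 0.14 (2.08-fold, adjusted p = 2.17e-06), after 0.01 and 0.06, and its contrast with earlier ages passed (adjusted p = 0.00082). Itln1, intelectin, a sugar-binding secreted protein, read 8.34, 10.31, 8.10 and 8.98 in Lewis and 8.07 to 8.15 in Fisher, where no array detected it. Its excess of at least 1.72-fold (adjusted p = 0.012) rested on Lewis replicates 2 and 4, without which the adjusted p was 0.11. The lower genes were the arginase Arg1 (-0.37) and Stat6 (-0.23), the signal transducer of interleukin 4, which missed the threshold without Lewis replicate 2 (adjusted p = 0.072). Il33, an epithelial alarm cytokine, differed by 0.13 (adjusted p = 0.75).

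Of 20 genes named in human asthma genetics, 20% were called against 12.7% of all genes. Gstm1, Gstt1 and Nod1 (0.28), a sensor of bacterial cell walls, were higher and Stat6 lower. Without Lewis replicate 2, 3 were higher and 0 lower, and with median scaling 1 was higher and 0 lower. Stat6 passed in 6 of 21 alternatives. Macrophage markers were split, with 4 of 20 higher and 2 lower (30% called), and 5 in each direction with the 8 arrays fitted alone. Cd68 (0.75), a lysosomal protein, Apoe (1.00), the lipid carrier, and Mrc1 (0.39), the mannose receptor, were higher, and Aif1 (-0.42), an actin-binding protein, and Ctsk were lower. Pparg (0.26), the other higher member, lost the call without Lewis replicate 2, and with median scaling none was higher and 1 lower. Of 29 cytokine and chemokine genes 3 were higher and 0 lower (10.3% called), among them the chemokine receptor Ccr1 (0.69) and the cytokine Il18 (0.36). Ccr1 and Il18 lost the call with median scaling (adjusted p = 0.23 and 0.46), with the deposited values and without Lewis replicates 2 and 4. None of 7 class II antigen-presentation genes passed, Cd74 among them (0.11, adjusted p = 0.78). Of 25 class I genes 12% were called. RT1-CE5 was higher in Lewis by at least 1.98-fold, with no Fisher array detecting it, and RT1-S3 (-0.85) and Cd1d1 (-0.27) were lower. Class I genes of the rat are many and similar, and differ by strain, so these probes may read different copies.

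T and natural killer cell markers gave 1 higher of 15 (6.67% called against 12.7% of all genes). With the 8 arrays fitted alone 7 were higher. In the complement and coagulation list, 1 gene of 27 was higher and 3 lower (14.8% called), against 5 each with the 8 arrays alone. C6, a component of the membrane attack complex, read 8.82, 8.61, 8.63 and 8.61 in Lewis and 10.05, 9.96, 10.31 and 10.48 in Fisher. The Lewis arrays all lay below Fisher (difference -1.53 ± 0.13, adjusted p = 1.45e-10), after -0.03 at PN1 and -1.01 at PN7. P2ry14 likewise changed with age, from 0.40 at PN1 and -0.23 at PN7 to -1.46 at PN14, and passed the contrast (adjusted p = 0.019). C4bpa, a complement inhibitor, was slightly higher (0.25).

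Of 24 endothelial genes, 2 were lower and 0 higher (8.33% called), with a median of -0.05 and 9 differences above 0. The 8 arrays fitted alone gave 5 lower and 1 higher. Nos3, the endothelial nitric oxide synthase, read 8.56, 8.47, 8.49 and 8.45 in Lewis and 9.99, 9.77, 9.79 and 9.67 in Fisher. The difference of -1.32 ± 0.08 (2.49-fold, adjusted p = 4.76e-13) stood beside -1.43 at PN1 and -1.48 at PN7. The junction protein Cdh5 (-0.31) lost the call without Lewis replicate 2. Among 47 genes of alveolar growth signalling 3 were higher and 2 lower (10.6% called). Without Lewis replicate 2, 1 was lower, since Angpt2 (-0.28), a ligand of vessel growth, missed the threshold (adjusted p = 0.10). Median scaling left 0 higher and 1 lower, the deposited values gave 5 and 0, and the 8 arrays alone 5 and 6. Beside Pdgfra and Wnt5a, Bmpr2 (0.66), a receptor for bone morphogenetic proteins, was higher.

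Of 42 proliferation genes, 1 was lower at PN14 and 0 higher (2.38% called against 12.7% of all genes). It was Mcm6 (-0.56), a helicase subunit of DNA replication. The count depended on the fit, with 14 lower when the 8 arrays were fitted alone and 5 with the deposited log2 values (median -0.35). In the shared fit, 3 of the 42 differences lay above 0, against 3653 of all 8063 named genes. Of the same 42, 20 were lower in Lewis at PN1 and 36 higher at PN7. Among all 8063 named genes, 411 were lower at PN1 and 442 higher at PN7. The medians of the 42 were -0.55, 0.56 and -0.11 at PN1, PN7 and PN14. The test of PN14 against the mean of the earlier ages was passed by 2 of the 42 and by 254 of all 8063. For the 42, the opposite signs of the earlier ages offset each other in that mean. Mki67, a marker of dividing cells, was close to background at PN14, between 8.25 and 8.36, and differed by -0.06 (adjusted p = 0.48).

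Genes of fat and muscle metabolism moved with the arrays that carried muscle, heart and fat markers. Of 32 lipid metabolism genes 6 were higher and 0 lower (18.8% called against 12.7% of all genes). Without Lewis replicate 2, 3 were higher. Acadm, a fatty acid oxidation enzyme, read 12.59, 13.46, 12.52 and 12.95 in Lewis and 12.36 to 12.49 in Fisher. It was highest on Lewis replicates 2 and 4, and its excess of 0.45 (adjusted p = 0.012) had an adjusted p of 0.078 without replicate 2. Cox8b, a respiratory chain subunit of heart, muscle and brown fat, read from 10.89 to 13.01 in Lewis, highest on replicates 2 (13.01) and 4 (11.84), and 9.39, 9.44, 9.90 and 9.35 in Fisher. All Lewis arrays lay above Fisher, but its adjusted p of 0.044 became 0.17 without replicate 2. Lipe, hormone-sensitive lipase of fat cells, read 9.98, 10.54, 10.01 and 10.05 in Lewis and 9.01, 8.99, 9.23 and 9.15 in Fisher. It was higher by 1.05 ± 0.16 (adjusted p = 2.09e-05), also without replicate 2 (adjusted p = 0.00023), and had differed by 0.16 and -0.16 at the earlier ages. None of the 15 heart genes and 1 of the 21 skeletal muscle genes passed, the latter Mybpc2, whose call was lost without replicate 2. The part of carried-over tissue in these results was not tested beyond leaving out the arrays.

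Of 50 respiratory chain genes 1 was higher, Uqcrc2 (0.55), and 1 lower, Atp5mc2 (-0.36), or 4% called against 12.7% of all genes. Smooth muscle genes gave 2 lower of 18 (11.1% called). These were the cytoskeletal protein Smtn (-0.54) and the prostaglandin receptor Ptger3, which no Lewis array detected. Smtn passed in 13 of 21 alternatives, and missed the threshold without Lewis replicate 4 (adjusted p = 0.18) and with slide as a block (0.089). Red cell precursor genes gave 1 of 13 (7.69% called), Lgals5. Neutrophil genes gave 1 of 12 (8.33% called), Lcn2, and the other members of that list did not pass.

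**Figure D5:**
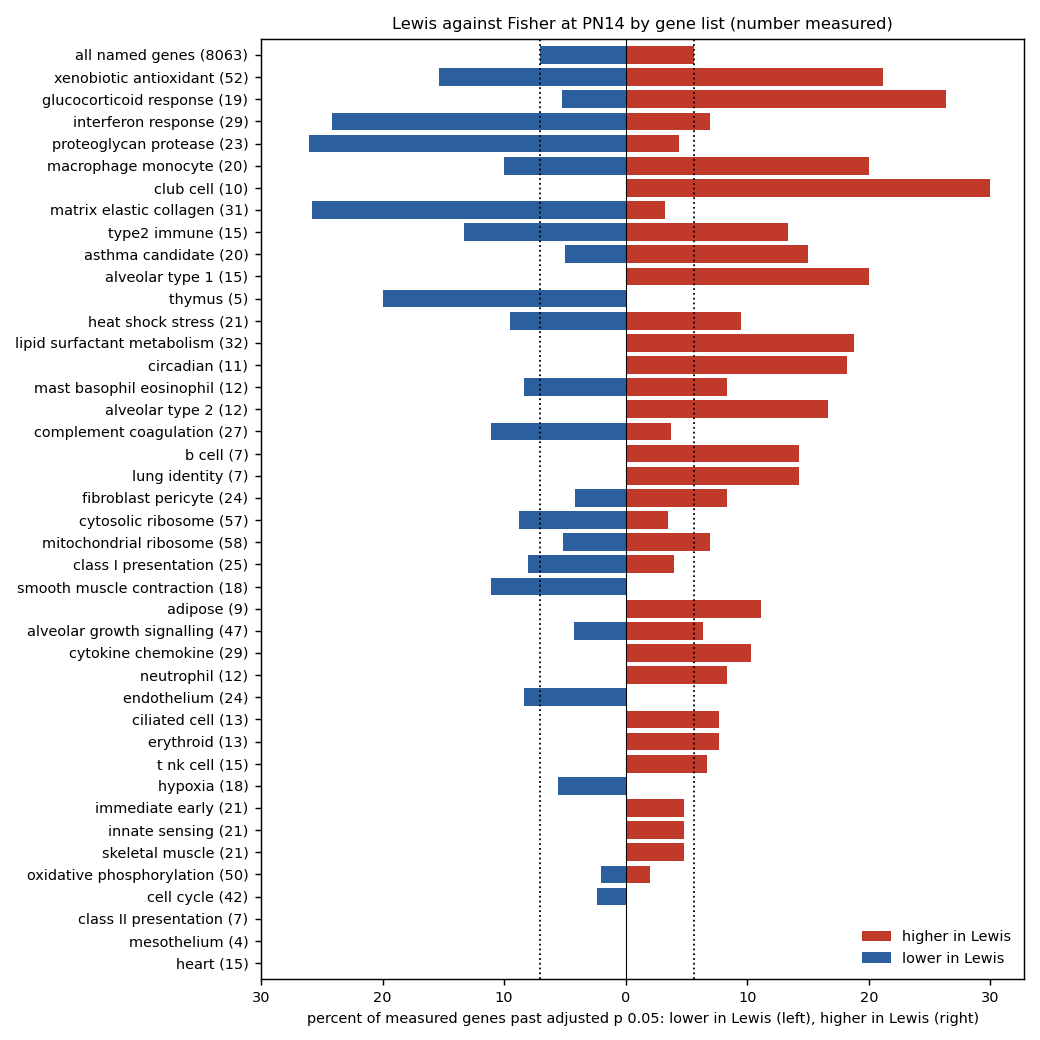
Percent of measured genes past the threshold, lower in Lewis to the left and higher to the right (horizontal axis), for each gene list with at least 4 measured genes (vertical axis, number measured in brackets). Dotted lines mark all 8063 named genes, and the xenobiotic list has the highest share called, 36.5%.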

How the data were processed

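Per the labels' protocols, Trizol was used to isolate RNA from whole lung, DNase to clear DNA, and the MessageAmp kit to make biotin-labelled cRNA. The authors deposited raw intensity on a linear scale and a detection p-value for each of 22226 probes on each array, per the file headers. The authors' deposited log2 values, for which the submitters' processing notes name lumi, served as an alternative. The 72 other per-sample columns of the scanner table were not used.

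Intensities were background-corrected with normexp from the detection p-values (offset 16), quantile normalised and log2 transformed with neqc of limma 3.58.1 in R 4.3.3. A probe counted as detected at a detection p under 0.01, and the 11339 probes detected on at least 3 arrays were tested. One mean per strain and age was fitted with limma to all 36 arrays (28.6 degrees of freedom). P-values are 2-sided and Benjamini-Hochberg adjusted over all tested probes, with a threshold of 0.05. Errors are the fit's standard errors, and each group had 4 arrays, except 3 for Lewis and 5 for Brown Norway at PN1. The number of arrays limits the precision. The PN14 difference was tested against the mean of the PN1 and PN7 differences in the same fit. Folds were computed from the log2 differences, and the offset shrinks those of dim probes. Where no array of a group detected a probe, the fold is a lower bound, from the higher of the lowest detected signal and the probe's own signal on each array of that group.

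GEO's platform annotation, possibly outdated, named 1 gene for 13192 probes, of which 13151 matched the RefSeq table, and none for 9034. The probe of highest mean stood for a gene. Genes named by rule were the 15 highest and 15 lowest that passed with and without Lewis replicate 2 with 1 sign and were detected on every array of a group, the 8 of smallest p in the contrast of ages, up to 4 passing members of each of 42 lists, and 13 fixed genes, where tested. Further list members were named after their values were seen. The members and lists were chosen with earlier results of these data known. Lists are described by counts and medians, with no test of the list. On simulated data with 11339 probes the fit recovered 56% of changes of 0.25, 88% of 0.5 and 98% of 1 on the log2 scale for this comparison, with 9 false calls. Alternatives left out arrays or changed the arrays fitted, the slide and replicate blocks, the normalisation, the background, the deposited log2 values, the filter and the moderation.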

Additional observations from a re-analysis of the deposited data

Results flagged for a closer look

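Among 320 sets of 4 arrays examined (each named gene and each list mean in either strain), 21 held an array whose gap to its nearest neighbour took up more of the range than Dixon's 95% critical value allows. Chance alone gives such a gap in about 1 set in 20. Lewis replicate 2 was the array apart for the means of the skeletal muscle genes (gap 0.874 of the range, 11.13 against 8.38 to 8.73 on the other Lewis arrays), the oesophagus genes (0.944, 10.02 against 8.92 to 8.98) and the macrophage genes (0.880, 9.80 against 9.78). It was also apart for Lipe (0.878), Mybpc2 (0.906) and Qrfpr (0.831). Lewis replicate 1, on the other slide, was apart for C6 (0.895) and the mesothelial genes (0.866, 10.22 against 10.35 to 10.38), and Lewis replicate 3 for Aqp5 (0.833) and Siglec5 (0.834).

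Fisher replicate 4 was apart for Tsc22d3 (0.893, 13.65 against 12.82 to 12.91), Cthrc1 (0.853), Cd1d1 (0.876), Apoe (0.845) and Arg1 (0.843). Fisher replicate 3 was apart for Scgb3a2 (0.907), Ifitm1 (0.855) and the neutrophil genes (0.895, 8.58 against 8.51). Fisher replicate 2 was apart for the immediate early genes (0.837, 10.46 against 10.23 to 10.26) and for Itln1 (0.919), which no Fisher array detected. For Scgb1a1 in Fisher the gap was the whole range (1), because 3 arrays shared 1 value at the top of the scale.

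The Lewis minus Fisher difference at PN14 was tested against the mean of those at PN1 and PN7, and 32 named genes passed, 8 of which were named for this contrast. The PN14 difference was more negative by these log2 amounts for P2ry14 (-1.55), Fbn2 (-1.29), Clec2l (-1.17), Mfap2 (-1.03), Cthrc1 (-1.03), C6 (-1.01), Cd248 (-0.99), Vcan (-0.86), Mx2 (-0.81) and Mcm6 (-0.76). Smaller amounts were found for Timp1 (-0.63), Pdia4 (-0.41) and Fcrl2 (-0.36). It was more positive for Fmo2 (2.42), Fmo1 (1.55), Cdo1 (1.46), Lipe (1.05), Ccl11 (1.02), Slco1a5 (0.95), Plekhh1 (0.79), Sftpa1 (0.73) and Acadm (0.63). Amounts below these were found for Dbp (0.36), C4bpa (0.27), Mup5 (0.29), Kcnj8 (0.17) and Pon1 (0.15). For Mrpl4 (0.43) the Lewis excess was greater at PN14, and for Plcxd3 (0.57), Mrpl18 (0.50), Stat6 (0.38) and Zcchc9 (0.30) the Lewis deficit was smaller.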

How the results depend on the processing

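The count of probes that differed at PN14 lay between 1121 and 1325 when each of the 8 arrays was left out in turn (524 to 615 higher and 597 to 733 lower). It was 1389 with slide as a block, 1732 within the slide of 3 Lewis and 4 Fisher arrays, 1980 with the 8 arrays fitted alone, 1911 without replicate 5 of Brown Norway PN1 and replicate 3 of Brown Norway PN14, and 1406 with the deposited log2 values. Median scaling gave 688 (252 higher, 436 lower), 678 of them among the 1429, and moved the median of all probes from -0.01 to -0.05. Leaving out Lewis replicates 2 and 4, chosen after seeing the data, gave 866 (407 lower). The count for the contrast with earlier ages ranged from 222 to 345 with each array left out (121 to 222 more negative). It was 48 with median scaling (27 more positive, 21 more negative) and 667 without the 2 Brown Norway arrays (261 and 406), and 120 were more negative when Lewis replicate 2 was left out before normalisation. The causes were not tested. Of 2476 values of named genes under the alternatives, 2253 kept their direction and side of the threshold, 214 lost the call, 4 gained it and 5 changed sign, none of which had been called. These were Per1 (-0.033 without Lewis replicate 4 and -0.040 with slide as a block, and from -0.050 without Fisher replicate 2 to 0.37 without Fisher replicate 4), Cd74 (-0.025 with median scaling) and Scgb1a1 (0.0022 without Lewis replicates 2 and 4). Median scaling ended the call of 40 named genes. Replicate numbers are shared by the groups, and the labels do not say whether same-numbered arrays belong together. In their deviations from the group mean, Lewis replicates 1, 2 and 4 correlated best with the Fisher array of their own number (0.16, 0.26 and 0.16). Lewis replicate 3 correlated best with Fisher replicate 1 (0.15, against 0.03 with Fisher replicate 3). These weak correlations cannot decide whether the arrays are paired. The main fit did not pair them, and the replicate block gave 1734 probes (794 higher, 940 lower). Probes near background, 47 called with a dim Lewis and 112 with a dim Fisher group, have compressed differences.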
